A study of Livoneca redmanii with 3 samples.

Results

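The assembled genes described here are those read in both stress libraries of the fish-parasitic isopod Livoneca redmanii. They were chosen by their counts: at least 10 in low salinity and at least 10 in low temperature once the contigs of a gene were summed, which 782 of 26084 assembled genes reached. RNA came from whole specimens taken from tilapia hosts, with 1 library per condition. Salinity was lowered step by step to 8 PSU for the low-salinity animals, water was cooled to 10 °C for the low-temperature animals, and controls stayed at 35 PSU and 26 °C. The labels leave out the temperature of the low-salinity water, the salinity of the cold water and the number of specimens in a library, and a remark in the series text says that the samples were replaced. Since the counts of both libraries chose the genes, their ratios are given as descriptions, with no test and no replicate check. All intervals below are exact 95% intervals for counting error only, since reads of the same amplified molecule cannot be told apart here.

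Of the 241 shared genes with descriptive text, 185 were described by the machinery of mobile elements, stretches of DNA that copy or move themselves within a genome. Retrotransposons are transcribed into RNA, copied back into DNA by a reverse transcriptase, freed from that RNA by ribonuclease H and inserted after an endonuclease or integrase cuts the target. DNA transposons are instead cut out and moved by a transposase. Hemocyanins and the related larval serum proteins carry oxygen or store amino acids in arthropod hemolymph.

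The shared genes took 93.6% of the 1434390 counts in low salinity (93.5% to 93.6%), 60.8% of the 2782324 counts in low temperature (60.7% to 60.8%) and 90.1% of the 2142836 counts in control (90.1% to 90.1%). Over these genes the median count was 128.5 in low salinity, 29 in low temperature and 254 in control. A count of 10 has a Poisson interval of 4.80 to 18.4, and 322 of the genes had fewer than 20 counts in the library where they were lower. Transcripts chosen by text as markers of isopod tissue were scarce outside low temperature. The 93 genes annotated as hemocyanin, larval serum protein, vitellogenin, actin, myosin, tropomyosin, troponin, cuticle or chitin summed to 554 counts in low salinity, 99254 in low temperature and 930 in control. Of these counts, 522 in low salinity and 891 in control lay on 2 muscle and actin genes, of which 1 also carries mobile-element text. Of the 93 genes, 76 were at 0 in low salinity, 0 in low temperature and 74 in control. In RNA from whole animals, fewer cells of a type and less RNA per cell cannot be told apart. The scarcity was not limited to tissue markers. The 113 ribosomal protein genes summed to 30 counts in low salinity, 21349 in low temperature and 20 in control. Its cause was not tested. Text for fish tissue matched 1 gene, with 0 counts in low salinity, 323 in low temperature and 1 in control.

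With TMM scaling in edgeR, the median log2 ratio of low salinity over low temperature was 0.08 and the quartiles of the shared genes lay at -1.54 and 1.71. In low salinity 276 of the 782 were at least 2-fold higher (35.3%), 268 were at least 2-fold lower (34.3%) and 238 lay between. Among the 8916 genes with at least 10 counts in either library, 18.8% were at least 2-fold higher and 74% at least 2-fold lower. Of these 8916 genes, 6298 had fewer than 10 counts in low salinity.

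The zero point of these ratios depends on the scaling, which adds nearly the same amount to every gene and so hardly alters their order. Relative to TMM, the log2 ratios shift by 2.89 with total counts, 3.77 with upper quartiles, 0.55 with medians of ratios and -0.12 with TMM over the shared genes alone. With total counts 624 shared genes were at least 2-fold higher and 35 lower, and with upper quartiles 704 and 26. The make-up of the libraries differed widely, and 3 genes without a protein match took 41.3% of all low-temperature counts. Higher and lower below therefore describe a gene's place among the shared genes under TMM, close to its distance from their median. Across the 6 scalings, 263 genes were at least 2-fold higher in every one and 26 at least 2-fold lower in every one.

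**Figure D1:**
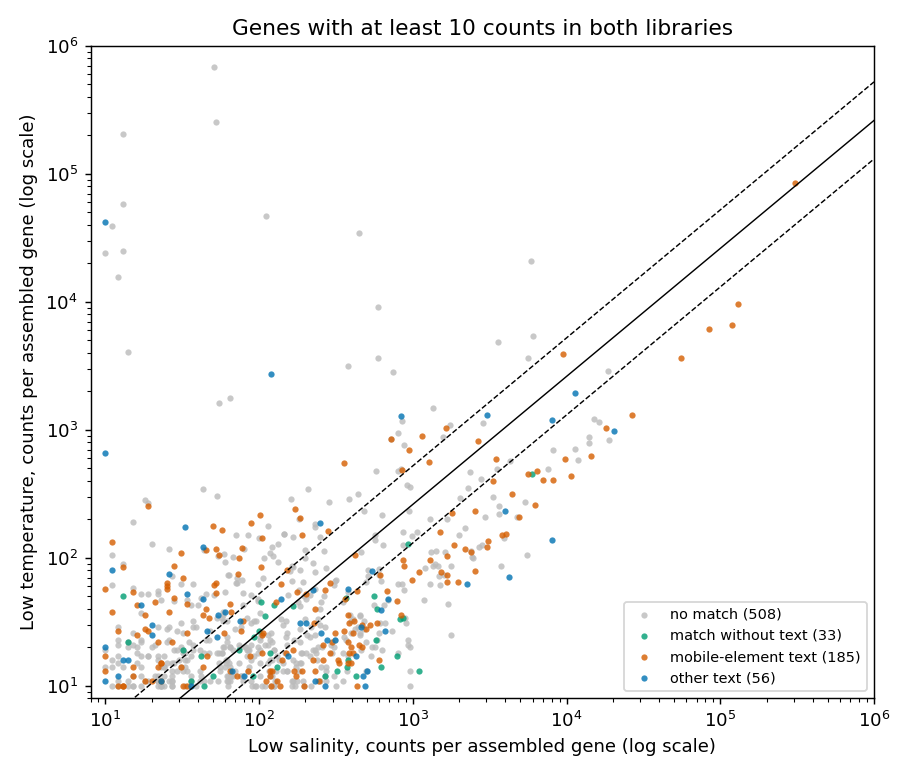
Counts per assembled gene in low salinity (x axis) and low temperature (y axis), both on log scales, for the 782 shared genes, coloured by the kind of annotation. The solid line marks equal TMM-scaled CPM and the dashed lines a 2-fold difference. The most counted genes with mobile-element text lie below the solid line, except TRINITY_DN4_c0_g1 just above it. A few genes without a match stand far above the solid line.

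The rule sets the edges of this cloud. At its threshold, 55 genes had a lower count of exactly 10, with log2 ratios from -13.92 to 4.64 and a median of -0.25. Just outside, 43 genes had a lower count of 9, with ratios from -3.74 to 4.69 and a median of -0.19. In 45 of the 55 genes inside and 31 of the 43 outside, the count at the threshold was the low-temperature one.

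The control library, which the rule did not use, had at least 10 counts for 771 of the 782 shared genes (98.6%). It had at least 10 for 1703 of 1836 genes that reached 10 only in low salinity (92.8%) and for 115 of 6298 that reached 10 only in low temperature (1.83%). In TMM-scaled CPM, control lay between the stress libraries for 393 shared genes, above both for 134 and below both for 255. Among the 276 genes higher in low salinity, the median log2 ratio to control was 0.46 for low salinity and -1.61 for low temperature. Among the 268 lower in low salinity, it was 0.12 for low salinity and 2.18 for low temperature, over the 260 with a count in control. Both groups were chosen by the ratio of low salinity to low temperature, so their 2 medians differ in the chosen direction by construction. Over the 774 shared genes with a count in control, the medians were 0.22 for low salinity and 0.02 for low temperature. All these ratios share the control library and the same scaling limits.

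Ratios also differed with the level in control. None of the 224 shared genes under 100 control counts was higher in low salinity and 164 were lower. With at least 100 but under 1000 control counts, 149 of 379 were higher and 81 lower. With 1000 or more, 127 of 179 were higher and 23 were lower around a median of 1.94 on the log2 scale. The rule bears on this by its construction, since a gene with few counts in low salinity and control enters only if low temperature is not far below. At the minimum, 10 counts are 15.2 TMM-scaled CPM in low temperature but 3.99 in low salinity, so weakly read genes can hardly be called higher. How much the rule adds to the pattern was not tested.

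Text of mobile elements was found on 185 of the shared genes (23.7%). It was on 113 of 1836 genes reaching 10 counts only in low salinity (6.15%) and 44 of 6298 only in low temperature (0.70%). Among all 26084 genes, 516 carried such text, and 35.9% of these were shared, against 3.00% of all genes. Text was taken from any contig of a gene, so genes with several contigs had more chances to carry it. Single-contig genes made up 43.0% of the shared genes, 76.0% of those reaching 10 only in low salinity and 86.9% only in low temperature. How far this adds to the difference was not tested. The 185 shared genes held 910285 counts in low salinity, 137403 in low temperature and 1200553 in control. Of the 185, 86 were higher in low salinity, 68 were lower and 31 lay between, and their median log2 ratio was 0.59 beside 0.08 for all shared genes. A share of 46.5% was thus higher and 36.8% lower, against 35.3% and 34.3% of all shared genes.

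Reverse transcriptase text was found on 104 genes, 45 higher (43.3%) and 42 lower (40.4%), against 35.3% and 34.3% of all shared genes. Their median of -0.12 turned positive with total counts (2.73), upper quartiles, medians of ratios and TMM over all genes. The gene with the most counts, the endonuclease-reverse transcriptase TRINITY_DN4_c0_g1, had 307101 counts in low salinity, 85223 in low temperature and 398227 in control, so that the ratio of scaled values was 0.944 (0.937 to 0.951). It sat near the middle of the shared genes, unlike the other most-counted elements. TRINITY_DN1960_c0_g1, with reverse transcriptase and ribonuclease H text, had 130246 counts in low salinity, 9596 in low temperature and 131570 in control, a ratio of 3.56 (3.48 to 3.63). TRINITY_DN24_c0_g1, whose 34 contigs carry reverse transcriptase or phosphatase regulator text where they carry any, had 84758, 6177 and 98240 counts in low salinity, low temperature and control, a ratio of 3.59 (3.50 to 3.69). At the low end, the reverse transcriptase TRINITY_DN769_c0_g1 had 19 counts in low salinity, 252 in low temperature and 72 in control, a log2 ratio of -5.63 that stayed below -1 under every scaling.

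Ribonuclease H text, for the enzyme that degrades the RNA strand of an RNA-DNA hybrid, was found on 78 genes. Of these, 44 were higher in low salinity (56.4%) and 25 were lower (32.1%), against 35.3% and 34.3% of all shared genes. The median of 1.43 stayed positive under all 6 scalings. It was 0.63 with a minimum of 5 counts and -0.0558 with no minimum. Its single-contig gene TRINITY_DN0_c1_g1 had 118737 counts in low salinity, 6633 in low temperature and 132133 in control, a ratio of 4.69 (4.57 to 4.81). TRINITY_DN2191_c0_g1 went the other way with 50 counts in low salinity, 178 in low temperature and 56 in control, a log2 ratio of -3.75 that became 0.01 with upper quartiles. Endonuclease text marked 32 genes, 18 higher (56.25%) and 8 lower (25%), with a median of 1.25.

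Elements named in the text (jockey, K02A2.6, gypsy, tigger and others) lay mostly on the higher side. Of 19 such genes, 12 were higher in low salinity (63.2%) and 4 were lower (21.1%), against 35.3% and 34.3% of all shared genes. The median was 1.65. The K02A2.6-like gene TRINITY_DN55_c0_g3 had 2521 counts in low salinity, 79 in low temperature and 7844 in control, a ratio of 8.36 (6.68 to 10.6). TRINITY_DN15_c0_g1, whose leading annotated contig is jockey-like, had 9745 counts in low salinity, 596 in low temperature and 23882 in control. Its ratio was 4.28 (3.94 to 4.66). TRINITY_DN22_c0_g1, whose contigs carry K02A2.6-like or Tf2-type retrotransposable element text and, on 1 contig, the name ZNF24, had 4906, 208 and 16668 counts in low salinity, low temperature and control, a ratio of 6.18 (5.38 to 7.13).

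Genes with DNA transposon text (transposase, hAT, tigger or piggyBac) were split. Of 12 shared genes, 5 were higher in low salinity (41.7%), 5 were lower (41.7%) and 2 lay between. Over all shared genes, 35.3% were higher and 34.3% lower. The list that held these 12 also had 9 genes with retroelement text only, such as Tf2 or RNA-mediated transposition. Of the 9, 3 were higher and 3 lower (33.3% each). Among transposases of the same description, TRINITY_DN4608_c0_g1 (ISXO2-like) had 31 counts in low salinity, 110 in low temperature and 54 in control, whereas TRINITY_DN325_c0_g1 (also ISXO2-like) had 397, 20 and 648. Their log2 ratios were -3.74 and 2.37. The hAT-family gene TRINITY_DN32568_c0_g1 had 11 counts in low salinity, 132 in low temperature and 14 in control, a log2 ratio of -5.46. Integrase text matched 1 gene in the whole table, which was not shared.

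**Figure D2:**
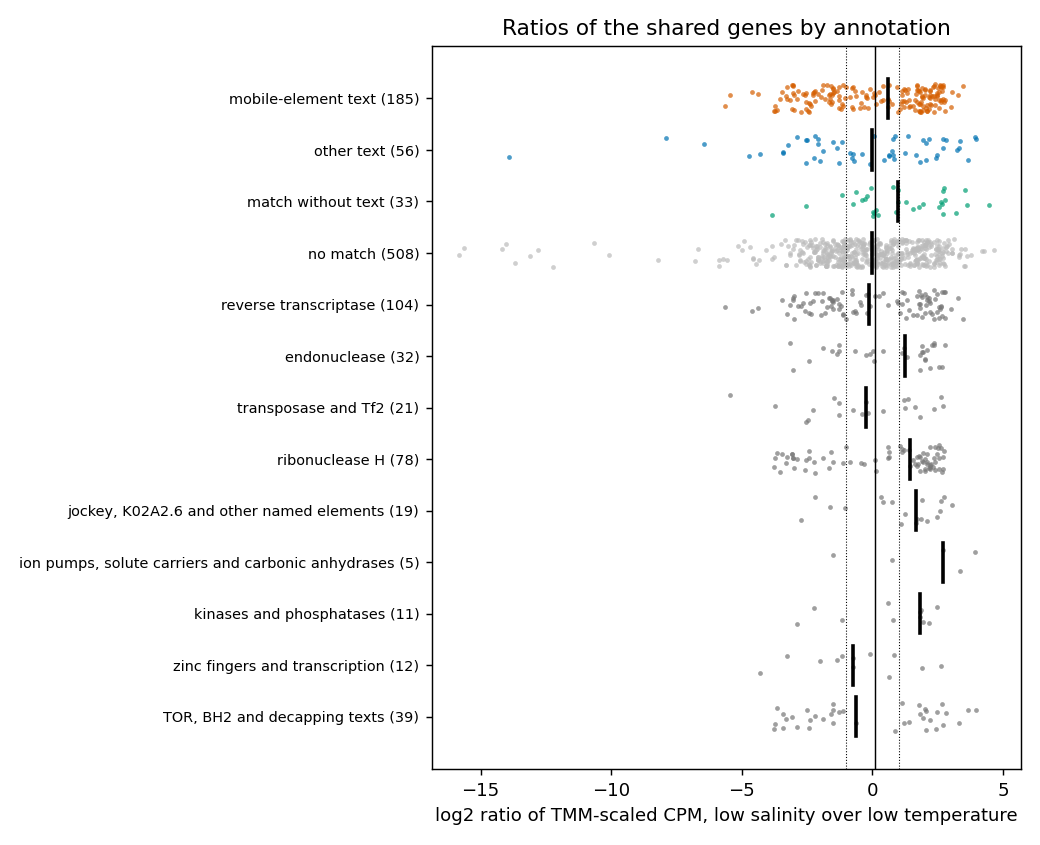
Log2 ratio of TMM-scaled CPM of low salinity over low temperature for each shared gene (points), by annotation class (upper 4 rows) and by list with at least 5 shared genes; bars are medians, the solid line is the median of all shared genes at 0.08 and dotted lines mark 2-fold. Ribonuclease H genes form an upper and a lower band with a median of 1.43, and the long lower tail consists mostly of genes without a protein match.

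Some descriptions that read like cellular functions recurred on many shared genes. "BH2 domain binding", a term used for partners of apoptosis regulators of the BCL-2 family, described 5 genes, and under every scaling each of the 5 was higher in low salinity by at least 2-fold. TRINITY_DN69_c0_g1 had 4216 counts in low salinity, 71 in low temperature and 9477 in control, a ratio of 15.6 (12.3 to 19.96), the highest among genes with text. The other 4 had 230 to 500 counts in low salinity, 10 to 13 in low temperature and 647 to 1361 in control.

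"Solute carrier family 22", which covers organic ion transporters, described 4 shared genes, 3 of them higher. TRINITY_DN27_c0_g1 had 7986 counts in low salinity, 139 in low temperature and 17083 in control, a ratio of 15.1 (12.7 to 17.9), and all 3 of its contigs bear this text. TRINITY_DN1958_c0_g1 had 471, 12 and 1009 counts in low salinity, low temperature and control, and TRINITY_DN232_c0_g1 had 663, 27 and 1616. TRINITY_DN1025_c0_g1 had 201, 31 and 538, with a log2 ratio of 0.76. The list of ion pumps, solute carriers and carbonic anhydrases held 95 genes in the table, of which these 4 and the NIPAL2 gene TRINITY_DN271_c0_g2 were shared. That last gene also bears reverse transcriptase text and had 940 counts in low salinity, 699 in low temperature and 2444 in control. Of the 94 genes in the list without mobile-element text, 4.26% were shared, against 3.00% of all genes. Of the 94, 81 were at 0 in low salinity, 1 in low temperature and 80 in control. All 94 summed to 9506 counts in low salinity, 8599 in low temperature and 20675 in control. The 4 solute carrier family 22 genes held 9321, 209 and 20246 of these.

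"Positive regulation of TOR signaling", a term for activation of the growth-controlling TOR kinase, described 33 shared genes, of which 20 also carried mobile-element text. In low salinity 12 of the 33 were higher (36.4%) and 19 lower (57.6%), against 35.3% and 34.3% of all shared genes. The median of -1.505 lay below the 0.08 of all shared genes under TMM. It became 1.38 with total counts, 2.27 with upper quartiles and 0.11 with TMM over all genes. Genes with this text alone spanned the range. TRINITY_DN70_c0_g1 had 426 counts in low salinity, 17 in low temperature and 621 in control, whereas TRINITY_DN4335_c0_g1 had 26, 75 and 26. Together with BH2 and decapping texts the list had 39 genes, 18 higher (46.2%) and 19 lower (48.7%), and 20 of the 39 also carried mobile-element text. Among the 19 without it, 11 were higher and 7 lower, with a median of 1.92 against -0.63 for all 39. The gene with the most counts in this list, TRINITY_DN18_c0_g1, had 55776 counts in low salinity, 3666 in low temperature and 71545 in control. Of its 44 contigs, 42 carried text, mostly of reverse transcriptases.

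"Protein phosphatase regulator activity" described 6 genes, 5 higher and 0 lower, and 4 of the 6 also carried mobile-element text. TRINITY_DN6_c0_g1, which also bears text of the WD40 region of Ge1, a protein that enhances removal of the mRNA cap, had 20292 counts in low salinity, 972 in low temperature and 22942 in control, a ratio of 5.47 (5.13 to 5.84). Over the whole list of 11 shared kinase and phosphatase genes, 6 were higher (54.5%) and 3 lower (27.3%), against 35.3% and 34.3% of all shared genes. Zinc finger text, for DNA- or RNA-binding domains, stood closer to the middle. Of the 12 shared genes in the zinc finger and transcription list, 2 were higher (16.7%) and 5 lower (41.7%). The median of -0.75 became 2.14 with total counts, 3.03 with upper quartiles and 0.87 with TMM over all genes. Mobile-element text was also on 5 of the 12, and of the 7 without it 0 were higher and 4 lower. TRINITY_DN427_c2_g1 had 11399 counts in low salinity, 1942 in low temperature and 14856 in control, a ratio of 1.54 (1.47 to 1.61), and TRINITY_DN50_c0_g3 had 8088, 1200 and 11116, a ratio of 1.77 (1.66 to 1.88). TRINITY_DN666_c0_g1 was far lower, with 33 counts in low salinity, 173 in low temperature and 72 in control, but its annotated contig held 0 of the 33 and 33 of the 173. TRINITY_DN582_c0_g1, named for the N-terminal domain of a DNA-directed RNA polymerase, had 2249, 63 and 5312 counts in low salinity, low temperature and control, yet annotated contigs held only 11.6% of its low-salinity counts.

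Of 4008 genes in the table with text other than of mobile elements, 56 were shared (1.397%, against 3.00% of all 26084 genes). Of the 56, 19 were higher in low salinity (33.9%) and 22 were lower (39.3%) around a median of -0.01. These shares were near the 35.3% and 34.3% of all shared genes. None of 113 ribosomal protein genes, 58 heat shock and chaperone genes, 108 ubiquitin and proteasome genes, 34 cuticle and chitin genes, 42 immune and lectin genes, 65 antioxidant and detoxification genes or 3 vitellogenin and egg genes reached 10 counts in both libraries. With so low a share over all genes, lists of this size hold few shared genes in any case, and a count of 0 in the shorter ones says little about them. Ribosomal protein genes summed to 30 counts in low salinity, 21349 in low temperature and 20 in control, and heat shock and chaperone genes to 7, 16989 and 17. Of the other lists, 1 of 70 translation factor genes, 1 of 94 small GTPase and vesicle genes, 2 of 82 muscle and actin genes, 2 of 118 RNA-binding and splicing genes and 2 of 164 protease genes were shared.

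Core histones, which package DNA into nucleosomes, were among the few cellular genes read in all 3 libraries. The histone H3 gene TRINITY_DN142_c0_g1 (HIST1H3D, HIST3H3) had 379 counts in low salinity, 57 in low temperature and 1121 in control. The histone H2B gene TRINITY_DN263_c0_g1 (HTB1) had 254, 26 and 699 counts in low salinity, low temperature and control, and the H3 variant gene TRINITY_DN227_c0_g1 (H3F3C) had 184, 31 and 543. Their log2 ratios were 0.80, 1.35 and 0.63. These 3 were the only shared genes among 84 histone and cell cycle genes without mobile-element text (3.57%, against 3.00% of all genes). Of the 84, 77 were at 0 in low salinity, 1 in low temperature and 74 in control. All 84 summed to 826 counts in low salinity, 3333 in low temperature and 2382 in control, of which these 3 held 817, 114 and 2363.

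The actin gene TRINITY_DN765_c0_g1 (ACTB), of the cytoskeleton, had 224 counts in low salinity, 56 in low temperature and 483 in control, a log2 ratio of 0.07. The libraries read different contigs of it. In low salinity 82, 78 and 34 counts fell on contigs i20, i12 and i6, whereas in low temperature 41 of the 56 fell on i2, which had 0 in low salinity and 0 in control.

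Among shared genes with text, the 3 lowest ratios were those of genes annotated for hemolymph or metabolism. The larval serum protein and hemocyanin gene TRINITY_DN12_c0_g1 had 10 counts in low salinity, 42385 in low temperature and 13 in control, a log2 ratio of -13.92. Its low-salinity counts lay on 2 of 15 contigs, 7 on i14 and 3 on i18, whereas all 15 had counts in low temperature. TRINITY_DN311_c0_g1, a fructose-bisphosphate aldolase, which splits a sugar phosphate in glycolysis, had 10 counts in low salinity, 654 in low temperature and 25 in control, a log2 ratio of -7.90. TRINITY_DN1_c1_g1 (cox3), after a subunit of the respiratory enzyme cytochrome c oxidase, had 119, 2712 and 686 counts in low salinity, low temperature and control, a log2 ratio of -6.44. Its name rests on 1 of 8 contigs, with 3 counts in low salinity, 88 in low temperature and 6 in control. All 3 genes stayed at least 2-fold lower in low salinity under every scaling. Of the 26 shared genes that did so, 20 had no protein match, 2 had mobile-element text and 4 had other text.

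The other named genes with low ratios had few counts. The helicase TRINITY_DN1596_c0_g1, annotated DDX11 after an enzyme that unwinds DNA, had 11 counts in low salinity, 80 in low temperature and 17 in control. The 2 other DDX11 genes were also lower, with log2 ratios of -3.24 and -1.65, both of which turned positive with upper quartiles. TRINITY_DN53747_c0_g1 carried both a dehydrogenase name (HSD17B10) and reverse transcriptase text on its single contig, with 13, 85 and 17 counts in low salinity, low temperature and control. The reverse transcriptase TRINITY_DN1270_c2_g1 had 10, 57 and 11. The reverse transcriptase genes TRINITY_DN494_c0_g1, TRINITY_DN75_c0_g2 and TRINITY_DN103_c8_g1 closed the high end, with ratios of 11.3 (6.07 to 23.7), 9.86 (6.02 to 17.4) and 7.94 (6.20 to 10.3).

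Several names of cellular genes stood on assembled genes that also carry mobile-element text, so the name and the counts need not belong to the same stretch. EFTUD1 (TRINITY_DN182_c0_g1), after a GTPase that acts in ribosome maturation, had 2550 counts in low salinity, 231 in low temperature and 8923 in control. The sulfatase name ARSA (TRINITY_DN351_c0_g1) went with 866, 97 and 2040 counts in low salinity, low temperature and control, and NID2 (TRINITY_DN1128_c0_g1), after a basement membrane protein, with 229, 31 and 461. MCM3 (TRINITY_DN5526_c0_g1), after a subunit of the replicative helicase, lay on the low side with 15 counts in low salinity, 54 in low temperature and 23 in control. The log2 ratios of these genes were 1.53, 1.22, 0.95 and -3.74.

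The remaining genes with cellular text alone had mostly under 100 counts in the stress libraries. MAP2K6 (TRINITY_DN19694_c0_g1), a kinase of the p38 stress pathway, had 20 counts in low salinity, 25 in low temperature and 37 in control, a ratio of 0.210 (0.1104 to 0.393). PITPNM2 (TRINITY_DN32036_c0_g1), a phosphatidylinositol transfer protein, had 67 counts in low salinity, 13 in low temperature and 109 in control, and its interval spans a ratio of 1. A gene described by homophilic cell adhesion (TRINITY_DN2330_c0_g1) was higher, with 276 counts in low salinity, 23 in low temperature and 582 in control. The aspartyl protease TRINITY_DN945_c0_g1 was lower, with 34, 52 and 96 counts in low salinity, low temperature and control. More deeply read was TRINITY_DN114_c0_g1, described only by nuclease activity, with 836 counts in low salinity, 1280 in low temperature and 1316 in control and a log2 ratio of -2.55 that turned positive with total counts and upper quartiles.

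**Figure D3:**
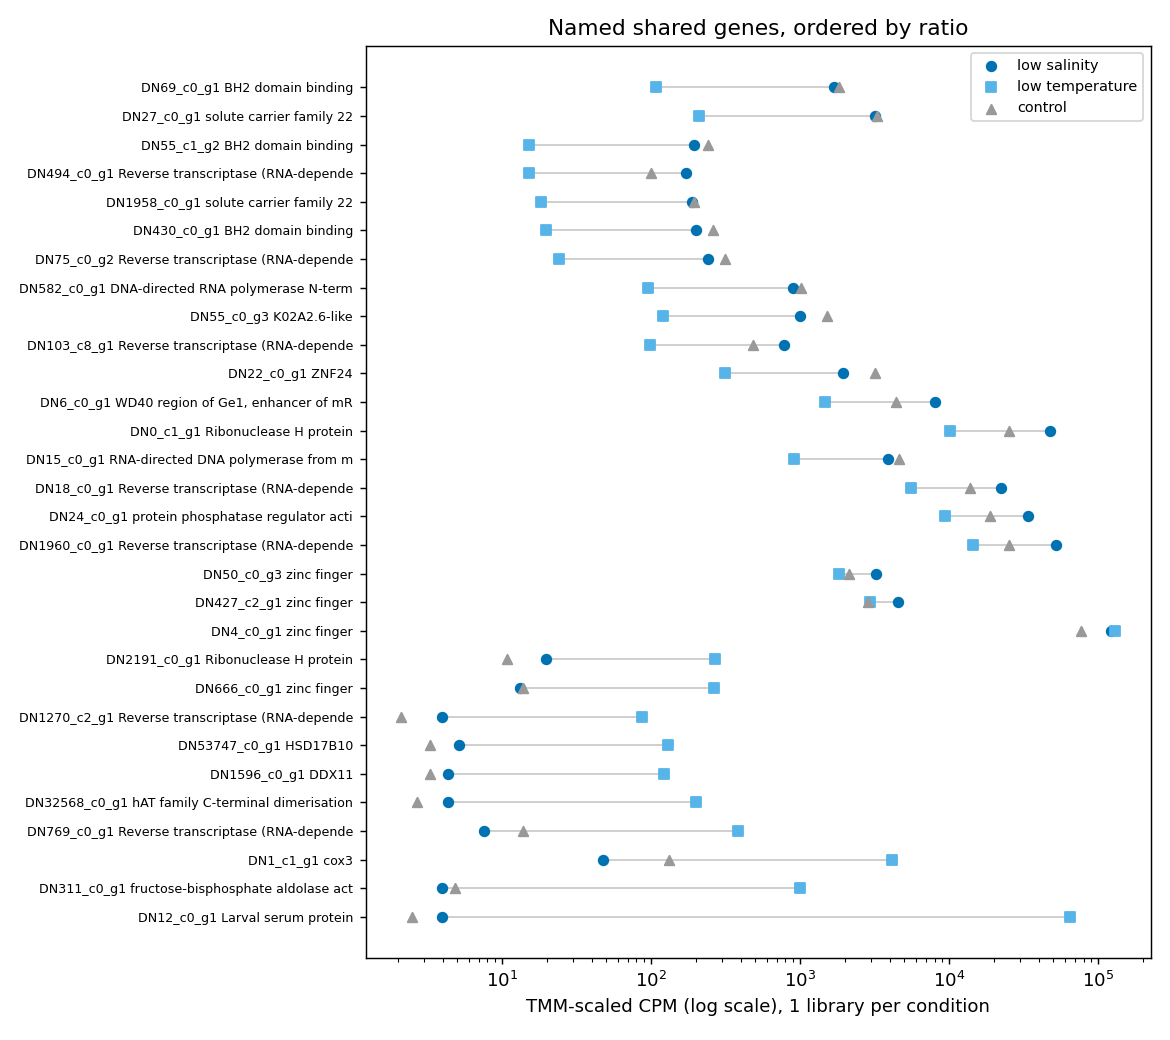
TMM-scaled CPM on a log axis of the named shared genes in low salinity, low temperature and control, 1 library each, ordered by the ratio of low salinity to low temperature; lines join low salinity and low temperature. For the upper 10 genes control lies near low salinity, with 171 CPM in low salinity against 100 in control for TRINITY_DN494_c0_g1 and 1005 in low salinity against 1512 in control for TRINITY_DN55_c0_g3, and the larval serum protein gene spans 3.99 CPM in low salinity to 64502 in low temperature.

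Genes without any protein match made up 508 of the 782 shared genes (65.0%) and 21402 of the 26084 in the table, and they held both extremes. Of those 21402 genes 2.37% were shared, against 3.00% of all genes. In low salinity 156 of the 508 were higher (30.7%) and 175 lower (34.4%), close to the 35.3% and 34.3% of all shared genes. The 12 genes with log2 ratios below -8 included 11 without a match beside the larval serum protein gene. These 12 had 757 counts in low salinity, 1437598 in low temperature and 3717 in control, which is 0.0528%, 51.7% and 0.173% of the counts of those libraries. TRINITY_DN5_c0_g1 had 51 counts in low salinity, 689530 in low temperature and 589 in control, and TRINITY_DN219_c0_g1 had 13, 205317 and 140. At the other end TRINITY_DN3189_c1_g1 had 963 counts in low salinity, 10 in low temperature and 2746 in control, a ratio of 25.2 (13.7 to 52.8). TRINITY_DN66_c0_g1, with a protein match but no text, had 1088, 13 and 2691, a ratio of 21.9 (12.8 to 41.3).

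Sums over contigs hid differences in which contigs were read. Among the 446 shared genes with several contigs, the contig with the most counts was the same in low salinity and low temperature for 304, and the same in low salinity and control for 371. Of their 2756 contigs, 2460 had a count in low salinity, 1826 in low temperature and 2597 in control. In 62 genes, 1 contig was at least 2-fold higher and another at least 2-fold lower in low salinity. Where a gene had at least 100 counts in all 3 libraries, 114 genes in all, the shares of contigs overlapped by a median of 86.8% between low salinity and low temperature and 94.2% between low salinity and control. The first overlap was the smaller in 85 of the 114, but low temperature also had the fewest counts in these genes, with a median of 367 against 1925.5 in low salinity and 2964 in control, and the part of depth was not tested. The lowest overlap, 8.69%, was that of TRINITY_DN0_c0_g1, where contig i2 had 54 of 110 counts in low salinity and contig i7 25449 of 46664 in low temperature.

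**Figure D4:**
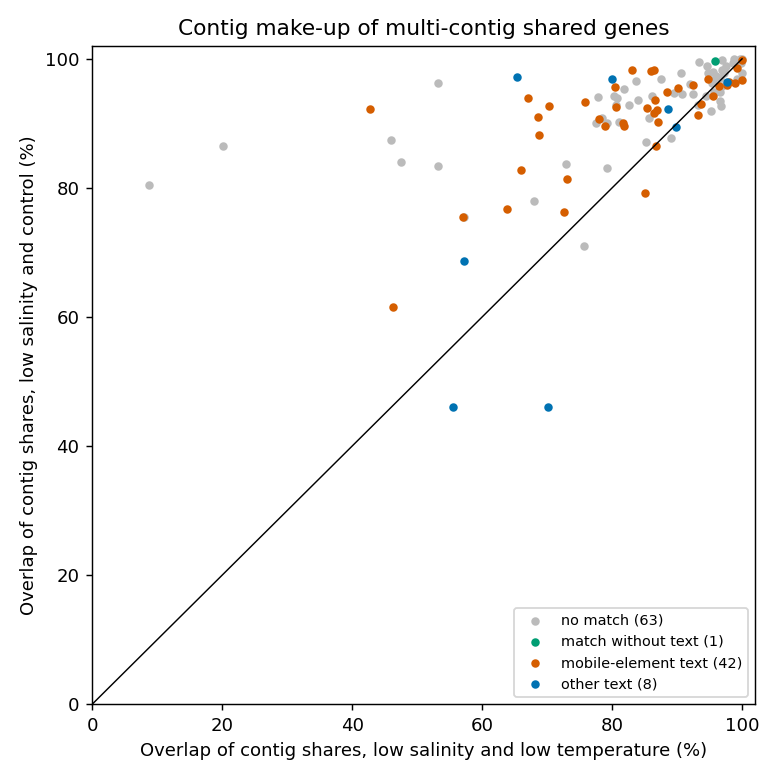
Overlap of contig shares within a gene between low salinity and low temperature (x axis, %) and between low salinity and control (y axis, %), for the 114 shared genes with several contigs and at least 100 counts in each library, coloured by annotation. The line marks equal overlap, and 85 genes lie above it.

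Genes of the same assembly cluster, which share sequence and can share reads, had more similar ratios than shared genes at large. The 782 genes fell into 512 clusters, of which 403 held 1 gene. Over the 379 genes in the other clusters, the pooled standard deviation of log2 ratios within clusters was 1.504, against 2.28 for the same genes pooled, a description without a test since reads may be split among them. In TRINITY_DN18 none of 14 genes was lower and 10 were higher, with log2 ratios from 0.24 to 2.51. TRINITY_DN50, with 14 genes, ranged from -2.39 to 2.20, and TRINITY_DN6, with 13, from -2.02 to 2.83. In 18 clusters some genes were higher and others lower.

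The authors' deposited table of this comparison lists 1 contig per gene. Of 781 shared genes with a log2 fold change there, 319 were at or above 1 and 226 at or below -1 in the authors' deposited table, with a median of 0.26. The contigs it lists held 43.5% of the low-salinity and 25.1% of the low-temperature counts of the shared genes. The listed contig had 0 counts in low temperature for 125 genes and 0 in low salinity for 52, with 27 genes in both groups. For TRINITY_DN2191_c0_g1 the authors' deposited table gives -9.05, beside -3.75 over all contigs. Its listed contig had 0 counts in low salinity and 38 in low temperature. For TRINITY_DN24_c0_g1 the authors' deposited table gives 7.83, from a contig with 51 counts in low salinity and 0 in low temperature, beside a log2 ratio of 1.85 over all 34 contigs. For TRINITY_DN22_c0_g1 the authors' deposited table gives 8.97, from a contig with 112 counts in low salinity and 0 in low temperature, beside 2.63 over all contigs, and for the single-contig gene TRINITY_DN0_c1_g1 it gives 2.57 beside 2.23.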

How the data were processed

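The authors deposited estimated counts per assembled contig, whole numbers in the file, for 3 libraries. The tools named in the submitters' processing notes are Salmon 1.10.2, fastp 0.23.2 and FastQC 0.11.9. Assembler, annotation tool and build: not given in the sources used here. Of 33093 rows, 31922 distinct contigs were kept once each and summed per assembled gene. Scaling factors came from TMM in edgeR 4.0.16 (R 4.3.3) over the 5503 genes with a mean count of at least 10 in the 3 libraries. They were 1.75 for low salinity, 0.236 for low temperature and 2.42 for control. Log2 ratios used a prior count of 0.5, and the size rule was 2-fold. Ratio intervals are exact conditional binomial (Clopper-Pearson), count intervals exact Poisson. The code was tested on simulated data. The deposited log2 fold changes in the authors' comparison table have the column names of DESeq2 results. No source used here gives their model.

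Gene lists were matched by text in names and descriptions of any contig of a gene, and a gene may be in several lists. Members and lists were chosen with earlier results of these data known. Genes were named by rule: the 10 highest and 10 lowest ratios among genes with text, the 5 with the most counts, the 5 with the most counts and no mobile-element text, and the gene with the most counts of every list with at least 5 shared genes. Others were named after their values were seen. Alternatives were other scalings, count minimums, contig units and a prior count of 2.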

Additional observations from a re-analysis of the deposited data

How the results depend on the processing

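No paired analysis was possible because each condition has 1 library, and for the same reason no library could be left out. Scaling moved the number of shared genes at least 2-fold higher, 276, to 624 with total counts, 704 with upper quartiles and 460 with TMM over all genes, an alternative chosen after seeing the data. The number lower, 268, became 35, 26 and 86 in that order, and the median log2 ratio, 0.08, became 2.95, 3.82 and 1.69. With medians of ratios the median was 0.63. A minimum of 5, 20 or 50 counts gave 1329, 460 and 249 shared genes, with 423, 166 and 92 higher and 498, 162 and 94 lower. With no minimum there were 23870 genes, 7073 higher and 15161 lower, with a median of -4.72. Each contig on its own gave 1217 contigs, 540 lower, and a median of -0.62. Of list medians beyond 2-fold, the sign reversed with no minimum for ribonuclease H (-0.0558), ion pumps, solute carriers and carbonic anhydrases (-7.34) and kinases and phosphatases (-7.09). It reversed with single contigs for ion pumps, solute carriers and carbonic anhydrases (-0.75). List medians within 2-fold of no difference changed sign under many of 12 alternatives: 8 for reverse transcriptases (-0.24 to 3.61 over all 12), 6 for transposases and Tf2 (-0.58 to 3.42), 4 for zinc fingers and transcription (-6.10 to 3.03) and 6 for TOR, BH2 and decapping texts (-1.52 to 3.11). Those for endonucleases (0.46 to 4.99) and for jockey, K02A2.6 and other named elements (0.85 to 5.39) kept their sign under all 12. TRINITY_DN4_c0_g1, at -0.08, became 0.47 with medians of ratios, 1.54 with TMM over all genes, 2.81 with total counts and 3.69 with upper quartiles. With upper quartiles TRINITY_DN2191_c0_g1 reversed to 0.00938. Of the other values for named genes and lists, 155 moved beyond counting error or the uncertainty of the list median and 247 did not. The 247 include all values of named genes under other count minimums, which only select genes and cannot alter a gene's own ratio. Those repeated values say nothing about how stable the ratios are. Changes with scaling follow from its construction, as it adds 1 amount to all ratios, and those with the minimum from which genes enter; the cause of the reversals with single contigs was not tested. For the 322 genes with a count under 20 in a library, counting error limits the ratio.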

Other observations

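A small set of shared genes was read under both stresses and hardly in control. Of the 782, 8 had 0 counts in control and 3 others had fewer than 10. The most counted was TRINITY_DN16_c0_g1, without a protein match, with 744 counts in low salinity, 2835 in low temperature and 0 in control. Its low-salinity counts were spread over 14 of its 16 contigs and its low-temperature counts over 15, with i6 (188 in low salinity, 757 in low temperature) and i10 (162 and 779) among the highest in both. The others had 10 to 44 counts in low salinity and 15 to 118 in low temperature. TRINITY_DN254_c0_g1 had 44 counts in low salinity, 116 in low temperature and 0 in control. TRINITY_DN2256_c0_g2, described by positive regulation of TOR signaling, had 13, 16 and 0 in low salinity, low temperature and control. These genes were singled out after their values were seen, and with 1 library per condition nothing shows whether another control library would also lack them.

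Descriptions of viral proteins appeared on 2 shared genes. A parvovirus non-structural protein NS1 text described TRINITY_DN1041_c0_g1, with 154 counts in low salinity, 17 in low temperature and 485 in control. A papillomavirus helicase text described TRINITY_DN1324_c0_g1, with 75, 32 and 232 counts in low salinity, low temperature and control.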
